A study of Petunia x hybrida with 10 samples.

Results

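In corollas of petunia cultivar Mitchell, 383 regions carried N1-methyladenosine (m1A) peaks in 2 or 3 of the 3 ethylene libraries and in none of the 3 air libraries. They were drawn from 36717 merged m1A regions, made by joining peaks of the 6 m1A lists wherever they shared 1 bp or more, and they are called ethylene-recurrent regions below. They were chosen by the presence or absence of m1A peaks in these 6 lists, and no other measure entered the choice. The tissue was corolla, the ring of petals, after 16 h with ethylene at 2 µl/l (m1A n = 3, m6A-titled n = 2) or 16 h in air (m1A n = 3, m6A-titled n = 2). Fragmented RNA was pulled down with an anti-m1A antibody and sequenced, and each library is represented by its own peak list, with no read counts, so that sequencing depth is unknown. No label says that the libraries came from separate plants, so a p-value over libraries reflects how far these libraries scatter, and that scatter may be technical alone.

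Adenosine methylated at position N1 carries the methyl group on the face that pairs with uridine, so the mark disturbs base pairing. It is best known from transfer and ribosomal RNA and has also been mapped in messenger RNA. Ethylene is the gaseous hormone that hastens petal senescence in petunia. No gene annotation or genome sequence was used here, so the regions are given by scaffold as named in the lists (Peaxi162, from Petunia axillaris v1.6.2), with positions counted from 1, and no gene, exon or sequence is assigned to them.

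The ethylene m1A lists differed in length, with 7526, 1013 and 8059 peaks in ethylene libraries 1, 2 and 3, against 15593, 17573 and 6760 peaks in air libraries 1, 2 and 3. Ethylene library 2 stood apart with the shortest list, and air libraries 1 and 2 held the longest. A long air list leaves fewer places without an air peak, and a short ethylene list adds few recurrent ones. The part of list length in the results was not tested. Each peak carries the authors' score, which was used to rank peaks within a list. Scores pile up at exactly 3100, the value of 41.8% of peaks in ethylene library 1, 70.6% in library 2 and 55.1% in library 3, so ranks near the top are tied.

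The ethylene-recurrent regions made up 1.04% of all merged m1A regions. They were 383 of the 2103 regions with a peak in 2 or more ethylene libraries, or 18.2% (95% exact binomial interval 16.6 to 19.9%), and the other 1720 also had a peak in at least 1 air library. Intervals given here are taken over regions and cover counting error only. The mirror set, with peaks in 2 or 3 air libraries and no ethylene library, held 4260 regions, which is 11.6% of all merged regions and 54.5% of the 7811 air-recurrent ones. These shares follow from the presence of peaks by which the regions were chosen, and they carry no test.

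Most ethylene-recurrent regions rested on the longer ethylene lists. Libraries 1 and 3 together gave 306 of the 383, libraries 2 and 3 gave 34, libraries 1 and 2 gave 30, and 13 regions had a peak in all 3. The share of recurrent regions that lacked an air peak was 18.3% for the pair of libraries 1 and 3, 23.8% for libraries 2 and 3 and 20.7% for libraries 1 and 2, and the intervals of these shares overlap. It was 8.84% (4.79 to 14.6%) for regions in all 3, where 134 of 147 also had an air peak. Ethylene library 2 contributed 77 peaks, 7.60% of its own list, while libraries 1 and 3 contributed 350 and 353 peaks, 4.65% and 4.38% of theirs.

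**Figure D1:**
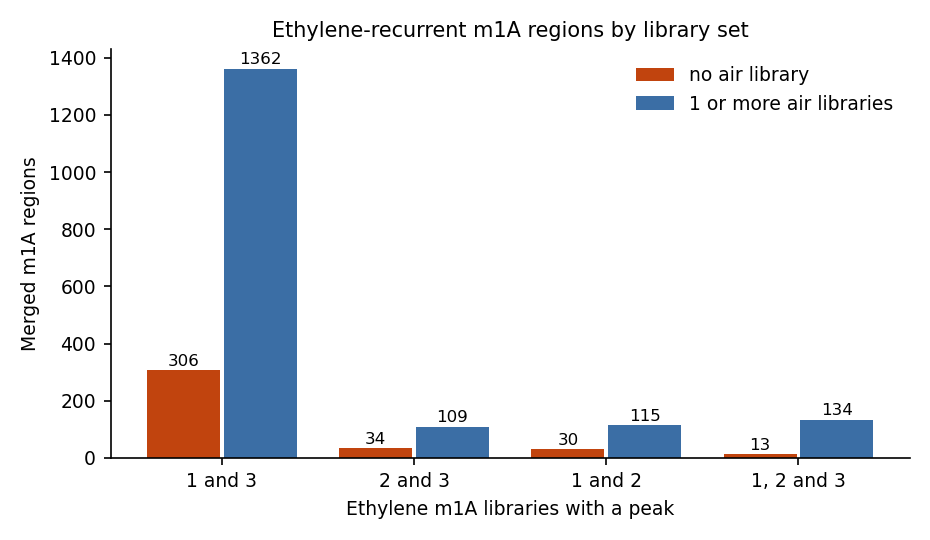
Number of merged m1A regions (vertical axis) for each set of ethylene libraries with a peak (horizontal axis), with bars for regions without and with an air peak. The pair of libraries 1 and 3 holds 306 regions without and 1362 with an air peak, and the regions in all 3 libraries number 13 without and 134 with one.

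Just outside the rule lay 626 regions with a peak in 2 or 3 ethylene libraries and in exactly 1 air library. The air peak was in air library 2 for 294 of them, in air library 1 for 218 and in air library 3 for 114, the same order as the lengths of these lists. On the other side of the rule lay 5940 regions with a peak in a single ethylene library and no air peak. Without air library 2 the number of ethylene-recurrent regions was 674, without air library 1 it was 595, and without air library 3 it was 496. With an ethylene library left out and a peak required in both others, it was 47 without library 1, 319 without library 2 and 43 without library 3.

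The 13 regions found in all 3 ethylene libraries are the most recurrent of the set. In 3 of them the peaks had the same start and the same end in every ethylene library. On Peaxi162Scf00834, positions 481946 to 482061, each ethylene library had a peak of 116 bp with a score of 3100. On Peaxi162Scf00263, positions 173954 to 174090, the peak was 137 bp wide in each library, with scores of 3100, 3100 and 856 in libraries 1, 2 and 3. On Peaxi162Scf00038, positions 128249 to 128351, it was 103 bp wide in each, with scores of 3100, 242 and 146. Identical bounds thus occurred with scores at the pile-up in every library and with scores low in the lists of libraries 2 and 3.

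Another 6 of the 13 had either their start or their end in common across the 3 libraries. On Peaxi162Scf00010, positions 1162438 to 1162569, all peaks started at the same base and were 132, 106 and 132 bp wide. On Peaxi162Scf00089, positions 1668172 to 1668231, the peaks ended at the same base, were 60, 57 and 60 bp wide and had scores of 788, 214 and 216, which placed them at percentiles of 19.7, 6.81 and 3.83 in their lists. In 5 of the 13 every peak scored 3100, tied with the other peaks of the pile-up. These were the regions on Peaxi162Scf00079 (1649174 to 1649567), Peaxi162Scf00155 (591183 to 591347), Peaxi162Scf00164 (472474 to 472721), Peaxi162Scf00560 and Peaxi162Scf00834.

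The widest ethylene-recurrent region, and one of the 13, was Peaxi162Scf00560 437425 to 439977, 2553 bp long. It held a peak of 1934 bp in ethylene library 1, of 1605 bp in library 2 and of 2553 bp in library 3, which shared their end and 1605 bp of sequence, each with a score of 3100. Its nearest air peak lay 89042 bases away, in air library 2, and no other m1A peak of any library lay within 5 kb. The next widest, Peaxi162Scf00046 726762 to 728677 with 1916 bp, was built differently. A single 1916 bp peak of library 3 spanned a 226 bp peak of library 1 at one end and a 76 bp peak of library 2 at the other, so that no base was common to the 3 libraries. It is the 1 region among the 13 without such a base.

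**Figure D2:**
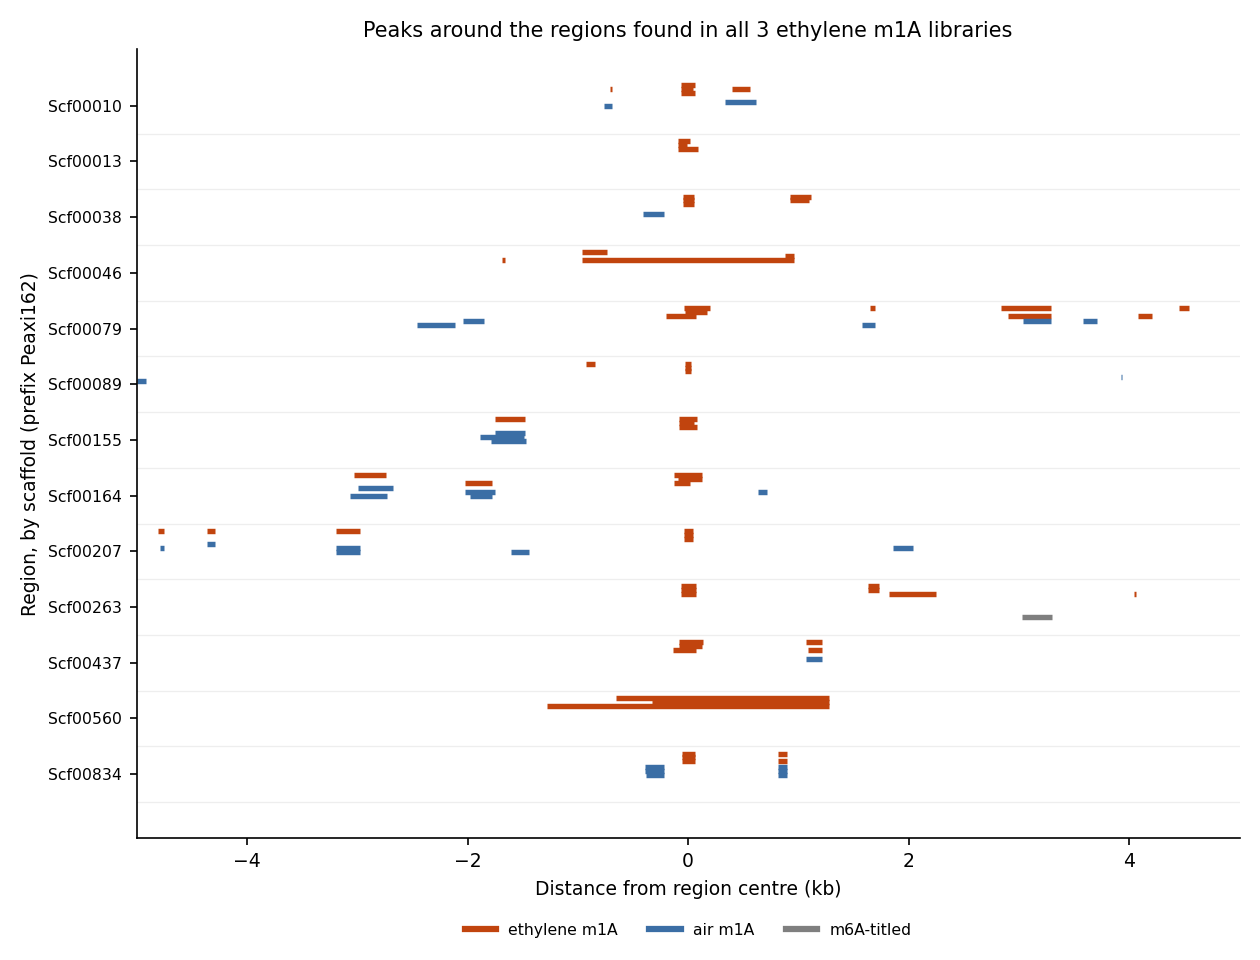
Peaks within 5 kb of the centre of each of the 13 regions found in all 3 ethylene libraries (one row per region, named by scaffold), with ethylene m1A peaks in orange (libraries 1 to 3 from top to bottom), air m1A peaks in blue and m6A-titled peaks in grey. Air peaks flank 9 of the 13 regions within 5 kb of their edges, and the long peaks of Scf00046 and Scf00560 stand without any.

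Beyond the 13, the mean score percentile was highest for Peaxi162Scf00987 214132 to 214350 and Peaxi162Scf00842 309373 to 309683. The first had peaks of identical bounds with scores of 3227 in ethylene library 1 and 3100 in library 3, and the second had 3171 and 3100. The remaining 8 regions named by this rule all scored 3100 in libraries 1 and 3 and were ordered by width. Among them Peaxi162Scf00739 93162 to 94081 was 920 bp wide, Peaxi162Scf00420 279286 to 280126 was 841 bp wide and Peaxi162Scf00711 172617 to 173205 was 589 bp wide.

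Taken as a whole the ethylene-recurrent regions did not rank high in their lists. Their peaks had a mean score percentile of 47.3 in ethylene library 1, 52.5 in library 2 and 47.04 in library 3, where the mean over a whole list is about 50. Of their peaks, 39.1%, 75.3% and 50.7% scored 3100 or more in libraries 1, 2 and 3, beside 43.2%, 70.9% and 56.3% of all peaks of these lists. Recurrent regions that also had an air peak gave mean percentiles of 47.4, 53.0 and 49.1. In 87 of the 383 regions (22.7%) every ethylene peak scored 3100 or more. These score values were not tested, because the same peaks chose the regions.

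By median width the regions lay between the classes on either side of the rule and near the mirror set. The median width was 192 bp (quartiles 95.5 and 290.5 bp, range 8 to 2553 bp), against 108 bp for regions of 1 ethylene library without air and 330.5 bp for recurrent regions shared with air. In the mirror set it was 201 bp (quartiles 112 and 315 bp), and over all m1A regions it was 146 bp. Merging makes a region of several peaks wider, so widths of single peaks were compared as well. In ethylene library 1 the median peak was 152.5 bp wide in the ethylene-recurrent regions, 109.5 bp in regions of that library alone and 231 bp in recurrent regions shared with air. The medians in the same order were 137, 95 and 184 bp in library 2 and 168, 107 and 247 bp in library 3. The order was the same in all 3 ethylene libraries. A wider peak has more room to share a base with a peak of another library, so single-peak widths are not independent of the rule. No test was run on the order.

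**Figure D3:**
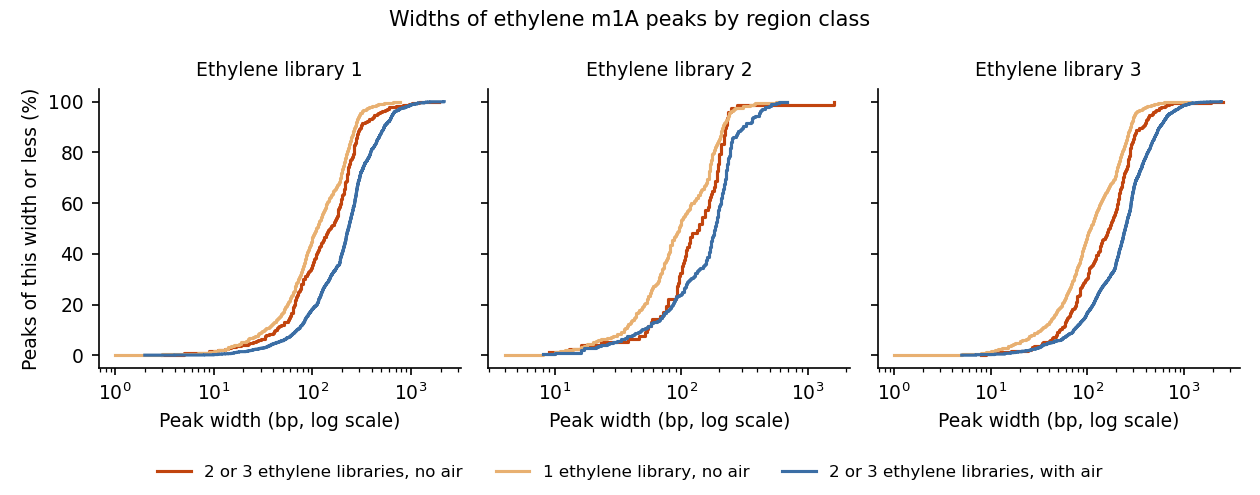
Cumulative share of ethylene m1A peaks (vertical axis, percent) by peak width (horizontal axis, log scale) in each ethylene library, for ethylene-recurrent regions, for regions of 1 ethylene library without air and for recurrent regions shared with air. In library 1 the medians are 152.5, 109.5 and 231 bp, and the ethylene-recurrent curve lies between the others around the median in each library.

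The narrowest regions were Peaxi162Scf00253 1132400 to 1132407, 8 bp wide with scores of 566 and 114 in libraries 1 and 3, and Peaxi162Scf00043 2693008 to 2693016, 9 bp wide with scores of 320 and 2338. In all, 23 regions were at most 50 bp wide and 27 were wider than 500 bp. Wide regions were also found by libraries 1 and 3 alone, such as Peaxi162Scf00323 579777 to 580982 with 1206 bp and 2 regions of Peaxi162Scf00378, 892296 to 893495 with 1200 bp and 933646 to 934673 with 1028 bp. The 1200 bp region was the 1 case in which a library, here library 1, had more than 1 peak in a region.

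Overlap between ethylene libraries is part of the rule, while the match of the peak bounds is not fixed by it. In 186 of 383 regions (48.6%) peaks of at least 2 ethylene libraries had the same start, in 186 the same end, and in 84 (21.9%, interval 17.9 to 26.4%) both bounds were identical. Where a region held exactly 2 peaks, they overlapped over a median of 75.4% of the bases covered by either (quartiles 45.2 and 96.1%, 369 regions). The match was also measured in recurrent regions that had air peaks. Between libraries 1 and 3, both bounds were identical in 73 of 318 ethylene-recurrent regions (23.0%, interval 18.4 to 28.0%) and in 295 of 1366 recurrent regions shared with air (21.6%, interval 19.4 to 23.9%). Not all regions with peaks in libraries 1 and 3 were counted, and more were left out among those shared with air. Libraries 1 and 3 alone held 306 regions without and 1362 with an air peak, and all 3 libraries held 13 and 134.

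Air m1A peaks were absent from the regions by the rule, and the distance to the nearest one was measured. An air peak lay within 5 kb of 332 of the 383 regions (86.7%, interval 82.9 to 89.9%) and within 1 kb of 220 (57.4%, 52.3 to 62.4%). The median distance to the nearest air peak was 771 bases, with quartiles of 257.5 and 2106.75 bases. Over all 36717 merged m1A regions the shares were 85.06% within 5 kb and 51.8% within 1 kb, with a median of 944 bases. Many of these regions hold air peaks themselves, and for them only air peaks outside the region were counted. Measured so, the share within 5 kb of the ethylene-recurrent regions was near that of m1A regions in general. An air-recurrent region, with peaks in 2 or 3 air libraries, lay within 5 kb of 191 regions (49.9%). Air peaks within 5 kb came from all 3 air libraries for 131 regions, from 2 for 121 and from 1 for 80, and 51 regions had none. For the counts by air-recurrent region and by number of air libraries, no share over all m1A regions is given. They describe this set alone.

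The same distances were taken for other classes of m1A region. For regions of 1 ethylene library without air, 81.2% (interval 80.1 to 82.1%) had an air peak within 5 kb and 50.9% (49.7 to 52.2%) within 1 kb, with a median of 953 bases. For recurrent regions shared with air, the nearest air peak outside the region lay within 5 kb in 85.2% (83.5 to 86.9%) and within 1 kb in 49.7% (47.3 to 52.1%), with a median of 1002.5 bases. The share within 5 kb was 75.5% when air library 2 was left out, and it was 65.5% among the 200 regions kept when only m1A peaks scoring 3100 or more were used. Both settings leave fewer air peaks and also change which regions are kept, and the part of either in these shares was not tested.

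**Figure D4:**
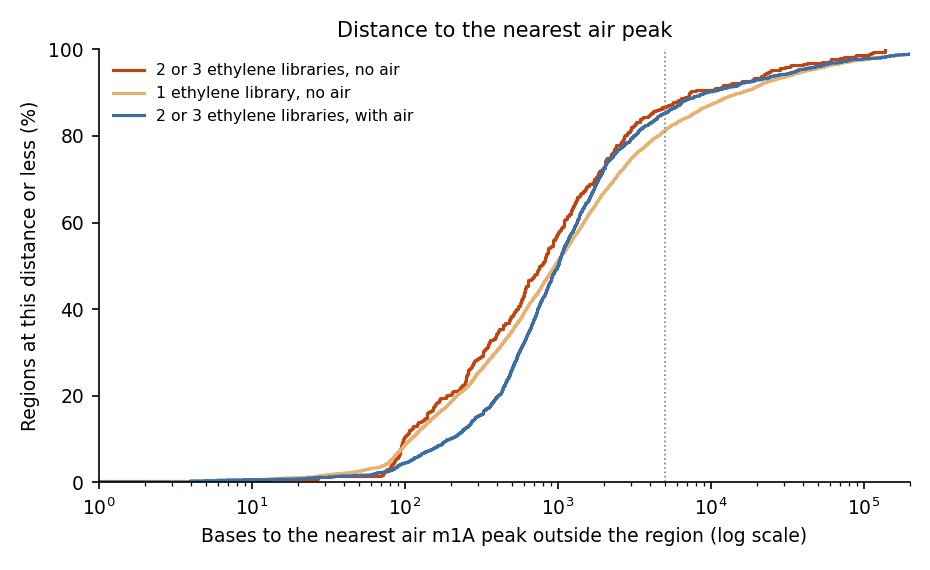
Cumulative share of regions (vertical axis, percent) by the number of bases to the nearest air m1A peak outside the region (horizontal axis, log scale), with 5 kb marked by a dotted line. Of the ethylene-recurrent regions 86.7% have an air peak within 5 kb, beside 81.2% of regions of 1 ethylene library without air and 85.2% of recurrent regions shared with air.

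By the rule no air peak overlapped a region, and the nearest one was seldom within 50 bases. It lay within 50 bases of 6 regions (1.57%), 51 to 100 bases from 34 (8.88%) and 101 to 150 bases from 24 (6.27%). Regions of 1 ethylene library without air showed 2.58%, 6.03% and 5.99% at these distances. Within 100 bases the share was 10.4%, beside 8.60% of regions of 1 ethylene library without air. It was 5.29% over all m1A regions, counting air peaks outside the region. Gaps of 51 to 100 bases between successive peaks made up 0 to 0.0968% of all gaps in each of the 6 m1A lists. Such gaps are a different measure, since the distances above are to the nearest peak of all air lists together, on either side. The closest case was Peaxi162Scf00075 1317935 to 1318316, with 1 base between it and a peak of air library 1. Peaxi162Scf00088 1005034 to 1005328 followed with 9 bases to a peak of air library 2, and Peaxi162Scf00016 2021787 to 2022417 with 13 bases to a peak of air library 1. In such cases an edge placed farther out by more than the gap would have brought the air peak into the region. What set the edges was not tested.

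Air peaks stood on both sides within 1 kb of 54 regions and on a single side within 1 kb of 166, with no share over all m1A regions to set beside these counts. Peaxi162Scf00834 481946 to 482061, with 3100 in each ethylene library, was among those with both sides occupied, and peaks of all 3 air libraries lay within 5 kb of it, the nearest 159 bases away. The share of regions with an air peak in a 100 bp bin averaged 6.09, 7.25 and 3.28% for air libraries 1, 2 and 3 at 200 to 1000 bp from the region's centre, and 2.26, 2.52 and 1.20% at 4 to 5 kb. Regions of 1 ethylene library without air showed a decline as well, with 4.88, 5.49 and 2.47% at 200 to 1000 bp and 2.36, 2.44 and 0.962% at 4 to 5 kb. Another ethylene m1A peak lay within 5 kb of 299 of the 383 regions (78.1%), beside 67.9% of regions of 1 ethylene library without air and 72.6% of recurrent regions shared with air. Over all m1A regions an ethylene peak outside the region lay within 5 kb of 61.3%. Many of those regions hold no ethylene peak themselves, so that share is not fully comparable. These shares were not tested.

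**Figure D5:**
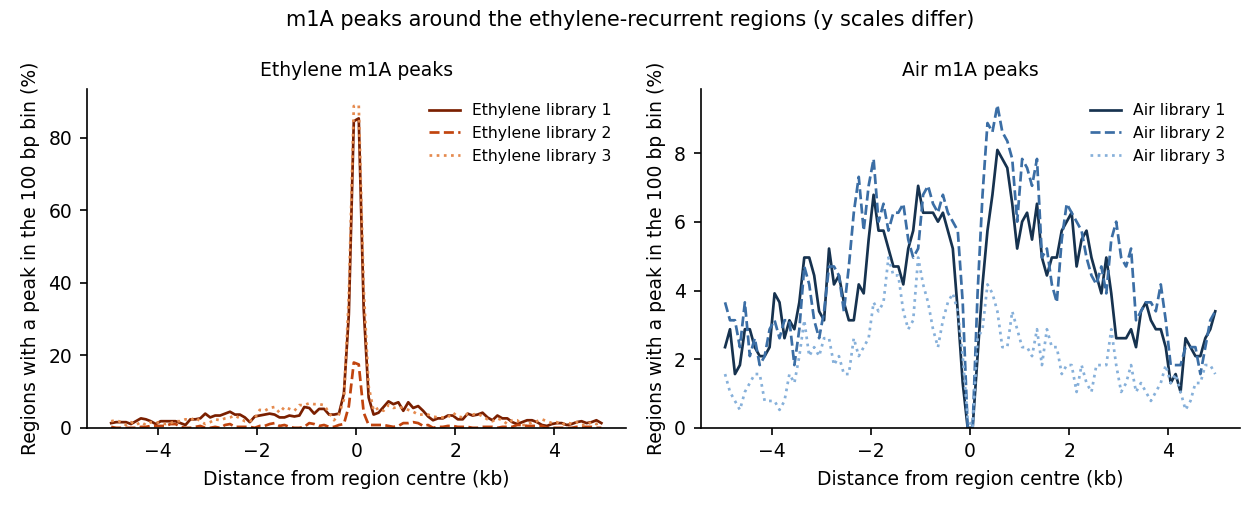
Share of ethylene-recurrent regions with a peak in each 100 bp bin (vertical axes, percent, on different scales) by distance from the region's centre (horizontal axes, kb), for the 3 ethylene libraries and the 3 air libraries. Air peaks are missing from the centre by the rule, and in air libraries 1, 2 and 3 the share averages 6.09, 7.25 and 3.28% at 200 to 1000 bp and 2.26, 2.52 and 1.20% at 4 to 5 kb.

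The 51 regions without an air peak within 5 kb had a median width of 238 bp, against 180 bp for the other 332. Their mean score percentile averaged 54.9 over the 51 regions, against 46.4 over the 332. Another ethylene m1A peak lay within 5 kb of 23 of the 51 (45.1%), beside 299 of all 383 regions (78.1%), a total that includes the 51. The farthest from any air peak was Peaxi162Scf00097 382227 to 382800, 137026 bases away, with scores of 3100 and 1065 in ethylene libraries 1 and 3. Peaxi162Scf00079 2130452 to 2130793 lay 115327 bases away, with scores of 192 and 3100. Peaxi162Scf00023 2368065 to 2368257 lay 112340 bases away, with scores of 2635 and 3100. Peaxi162Scf00110 285179 to 285683 followed with 108535 bases and scores of 1944 and 797. 1 region, Peaxi162Scf01558 40310 to 40627, was on a scaffold with no air m1A peak and scored 194 and 237, at percentiles of 3.37 and 4.36 in the lists of libraries 1 and 3. This region was not among those the naming rule selects, and its values were known when it was picked.

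The regions were scattered along the assembly. They fell on 259 scaffolds, 183 of which held a single region. Peaxi162Scf00016 held 12, which is 2.38% of its 504 m1A regions, Peaxi162Scf00038 held 6 (1.28% of 467) and Peaxi162Scf00045 held 5 (1.67% of 300), beside 1.04% over all scaffolds. When regions within 5 kb of each other were joined, 341 stayed alone and the other 42 formed 21 pairs. The first 5 of these tied pairs by position were on Peaxi162Scf00009, Peaxi162Scf00021, Peaxi162Scf00024, Peaxi162Scf00038 and Peaxi162Scf00053. On Peaxi162Scf00038, the pair spanned 128249 to 129417 and consisted of a region found in all 3 ethylene libraries and a region of libraries 1 and 2, with the nearest air peak 167 bases away.

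The m6A-titled lists, which had no part in choosing the regions, gave a readout independent of the rule. N6-methyladenosine (m6A) is a common internal mark of messenger RNA. Their protocol text gives an anti-m1A antibody, as for the m1A libraries, so m6A is used here for the title alone, and the target of the antibody was not checked. A peak of at least 1 m6A-titled list overlapped 13 of the 383 regions (3.39%), beside 4.21% of all m1A regions, and lay within 5 kb of 58 (15.1%, interval 11.7 to 19.1%), beside 16.7% of all m1A regions. Both shares were near those of m1A regions in general.

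The counts of regions near m6A-titled peaks overlapped between the treatments. Peaks within 5 kb were found for 29 and 26 regions in ethylene m6A-titled libraries 1 and 2, against 34 and 25 regions in air m6A-titled libraries 1 and 2. The ethylene values lay between the air values, with means of 27.5 ± 2.12 regions after ethylene and 29.5 ± 6.36 in air (SD, n = 2 each). As shares of the ethylene-recurrent regions, the counts were 7.57 and 6.79% for the ethylene libraries and 8.88 and 6.53% for the air libraries. Over all m1A regions the shares were 9.99 and 7.97% for the ethylene libraries and 8.58 and 8.62% for the air libraries. The difference of -2 regions did not pass the test (exact two-sided permutation p = 1, smallest possible 0.333 over 6 regroupings). Overlap was found for 6 and 5 regions in the ethylene libraries, against 7 and 5 in the air libraries (difference of means -0.5, exact two-sided permutation p = 1). With 2 libraries on each side no difference could have passed a threshold of 0.05, and the tests do not show that the treatments were alike.

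Of the 13 regions overlapped by an m6A-titled peak, 9 were overlapped in an air list and 8 in an ethylene list, 4 of them in both. The 9 regions had no air peak in the m1A lists by the rule. Air m6A-titled libraries 1 and 2 overlapped 1.83 and 1.31% of the ethylene-recurrent regions, beside 2.23 and 2.08% of all m1A regions. For ethylene m6A-titled libraries 1 and 2 the shares were 1.57 and 1.31%, beside 2.37 and 1.97% of all m1A regions. On Peaxi162Scf00016, positions 735552 to 735923, a peak of 372 bp scored 3100 in both ethylene and both air m6A-titled libraries, on the minus strand, with exactly the bounds of the m1A region and of the peak in ethylene m1A library 1. The m1A scores there were 3100 in ethylene libraries 1 and 3, there was no m1A peak in ethylene library 2 or in any air library, and the nearest air m1A peak lay 13850 bases away. The m1A peak of ethylene library 3 was 227 bp wide and shared the end but not the start.

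A pair of other regions was overlapped in all 4 m6A-titled lists. Peaxi162Scf00287 1595639 to 1596312 lay inside an 897 bp m6A-titled peak on the minus strand that had the same bounds in every list, with scores of 1030 and 1805 in ethylene and 3100 and 3100 in air. The m1A peak of ethylene library 1 ended at the same base as the m6A-titled peaks, that of library 3 did not, and the nearest air m1A peak lay 96 bases from the region. Peaxi162Scf00153 901011 to 901377 had m1A scores of 3100 in ethylene libraries 1 and 3 and lay within or across plus-strand m6A-titled peaks of 703 and 765 bp in ethylene and 812 and 819 bp in air, scoring 251 and 108 in ethylene and 118 and 43.3 in air. Peaxi162Scf00015 234935 to 235217 was overlapped in ethylene m6A-titled library 2 and air m6A-titled library 2, with low scores of 41.9 and 16.7.

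The other 9 regions were each overlapped in a single m6A-titled list, 3 in ethylene library 1, 1 in ethylene library 2, 4 in air library 1 and 1 in air library 2. Of the 13, 11 shared a start or an end with an overlapping m6A-titled peak, and in 4 both a start and an end were shared, whether by a single m6A-titled peak or not. In 8 of the 13 every overlapping m6A-titled peak scored under 100. Such scores were common in these lists. The median score of all peaks was 55.1 and 86.7 in ethylene m6A-titled libraries 1 and 2. It was 83.2 and 99.7 in air m6A-titled libraries 1 and 2. The 13 regions had a median width of 358 bp, against 182.5 bp for the 370 regions without overlap. A wider region has more room to be overlapped, and the part of width in the overlap was not tested. None of the 13 regions found in all 3 ethylene m1A libraries was overlapped by an m6A-titled peak in any of the 4 lists.

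Within 5 kb, 24 of the 58 regions had m6A-titled peaks in both treatments, 15 in ethylene lists only and 19 in air lists only. Peaks of all 4 m6A-titled libraries lay within 5 kb of 12 regions. For these counts no share over all m1A regions is given, and they describe this set alone. By the strand of the nearest m6A-titled peak, the region lay on its 3′ side in 28 and on its 5′ side in 17 of the 45 that did not overlap. The sides were not counted for other m1A regions, and the difference was not tested. An m6A-titled peak lay within 5 kb of 11 of the 51 regions without a near air m1A peak (21.6%, interval 11.3 to 35.3%) and of 47 of the 332 with one (14.2%, interval 10.6 to 18.4%). The intervals overlap, and the difference was not tested.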

How the data were processed

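Per the labels' protocols, fragmented RNA from petunia corollas was immunoprecipitated with an anti-m1A antibody and sequenced. The authors deposited 1 peak list per library (6 m1A, 4 m6A-titled), with a score for each peak whose scale the sources do not state. The submitters' processing notes list MACS 1.4.2, STAR 2.5.1b, cutadapt 1.9.3 and CASAVA 1.4, with no settings, and genome builds of human and mouse that do not match the petunia scaffold names of the lists. Peak numbers in the names skip; the reason is not given in the sources used here.

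Lists were grouped by title, merged at an overlap of 1 bp or more with Python 3.11.15, pandas 2.3.3 and numpy 2.4.6, and checked on simulated lists. Distances count the bases between edges. Score percentiles are ranks within a list, ties averaged. Exact binomial intervals (95%, scipy 1.17.1) cover regions, not plants. The 4 m6A-titled libraries were compared by exact permutation of treatments. Regions were chosen, and tests and lists set, with earlier results of these data known. Named regions are those in all 3 ethylene lists, the 10 highest of 2 libraries by mean score percentile, the 5 widest and 2 narrowest, those overlapped by 2 or more m6A-titled libraries, the 5 nearest to and 5 farthest from air peaks, the 5 largest groups and the 3 richest scaffolds; regions beyond these were chosen after their values were seen. Alternatives were other overlaps, a minimum score, other windows and each library left out.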

Additional observations from a re-analysis of the deposited data

How the results depend on the processing

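Depth is unknown for every list, so the number of ethylene-recurrent regions, 383, is a property of these lists. It was 340 when peaks had to share 50 bp and 376 when peaks within 100 bp were joined. It fell to 200 when only m1A peaks scoring 3100 or more were used, and leaving out 1 m1A library gave 43 to 674. The share with an air peak within 5 kb, 86.7%, was 65.5% with the minimum score and 75.5 to 86.8% with 1 library left out. In other windows it was 57.4% within 1 kb and 90.6% within 10 kb. The median width of 192 bp ranged from 154 to 225.5 bp over the alternatives.

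The ethylene minus air difference in regions near m6A-titled peaks, -2 within 5 kb, was -6.5 to 2.5 with 1 m6A-titled library left out, turning positive without air library 1. The difference by overlap, -0.5, was -1.5 to 0.5, turning positive (0.5) without air library 1 and with m6A-titled peaks scoring 100 or more. The cause was not tested, and exact permutation p was 0.333 to 1 throughout. With the replicate number as a block (pairing) the differences were -2 and -0.5 (exact sign flips, p = 1, smallest possible 0.5). Same-numbered libraries did not deviate together (correlation 0.0265 over 3280 m6A-titled regions), so the numbers were not read as pairs.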
